A study of Mus musculus with 4 samples.

Results

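The genes described here are 8 homeobox genes of embryonic mesenchyme: the paired-like genes Alx1, Alx4, Prrx1, Prrx2, Shox2 and Pitx1, and the Msx genes Msx1 and Msx2. They were taken by symbol, all 8 were found among the 54532 gene IDs of the deposited count table, and all 8 passed the filter on low counts that left 13306 genes. RNA was sequenced from primary mouse embryonic fibroblasts (MEFs), connective-tissue cells cultured from embryos. There were 4 libraries, 1 per genotype, namely Trp53-/-, Zfp871-/-, Trp53-/-; Zfp871-/- (double null) and wild type (WT). Per the labels, all cells were C57BL/6, were taken from embryos at 12.5 to 13.5 days post-coitum, and were dividing at passage 4. WT cells could come from either of the crosses that were set up, Zfp871-/- cells came from Zfp871 heterozygotes, and Trp53-/- and double-null cells came from double heterozygotes. The sources used here do not state whether embryos were pooled or which parts of the embryo were dissociated.

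Homeobox genes encode transcription factors that bind DNA through a homeodomain, and many of them mark where in the embryo a cell arose. Prrx1 and Prrx2 are broad markers of limb bud and facial mesenchyme, and Prrx1 regulatory DNA is widely used to mark the limb. Alx1 and Alx4 act in the frontonasal and limb mesenchyme, Shox2 in the proximal limb, palate and heart, and Pitx1 in the hindlimb and jaw. Msx1 and Msx2 are induced by bone morphogenetic protein (BMP) signals in tooth, skull and limb buds, where they keep mesenchyme in an immature state. Fibroblasts can keep part of such a positional code in culture.

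The libraries held 19303167 to 22324599 counts. Trp53, which encodes the tumour suppressor p53, was counted 2383 times in WT, 2413 times in Zfp871-/-, 1233 times in Trp53-/- and 1382 times in the double null. Zfp871, which encodes a zinc finger protein, had 660, 327, 784 and 307 counts in the same order. Each targeted gene was thus lower in the libraries labelled null for it. All 11 fibroblast markers examined were above the filter. Their summed level was 44200 CPM in WT, 45900 CPM in Zfp871-/-, 37500 CPM in Trp53-/- and 33400 CPM in the double null. Single markers did not all follow this sum. In Trp53-/-, 4 of the 11 exceeded their WT level by 2-fold or more, beside 8.90% of all genes kept. Only 1 lay below WT by as much, beside 8.88%. The edgeR test described below called 2 of the 11 as lower with Trp53 loss and 0 as higher, beside 4.31% and 5.01%. Of 7 epithelial markers 2 passed the filter, as did 2 of 6 skeletal muscle markers. The epithelial marker Epcam and the muscle regulators Myod1, Myog and Myf5 had fewer than 3 counts in every library. CPM is the count scaled to the library total after TMM normalization. No genotype had a replicate library, so each pairwise value compares libraries and has no replicate check, and the intervals given cover counting error only.

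Msx1 and Msx2 lay far apart from WT in every other library. Msx1 (ENSMUSG00000048450, chromosome 5, 37820485 to 37824583, minus strand, GRCm38/mm10) was counted 549 times in WT, 166 times in Zfp871-/-, 64 times in Trp53-/- and 102 times in the double null. Msx2 (ENSMUSG00000021469, chromosome 13, 53466884 to 53473074, minus strand) was counted 245 times in WT, 50 times in Zfp871-/-, 13 times in Trp53-/- and 23 times in the double null. WT was the highest and Trp53-/- the lowest library for both genes. The double null and Trp53-/- did not differ beyond counting error for Msx2, whereas for Msx1 the double null was the higher. WT and Zfp871-/- lay above both of them for each gene.

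The promoter of Msx1 is shown because the gene had one of the widest spreads over the libraries, and that of Shox2 because Shox2 was the only member with its lowest level in WT. Both sequences are the 250 bases before the RefSeq transcription start in GRCm38.p6, read 5′ to 3′ on the strand of the gene. Msx1 is taken from chr5:37824586-37824835 (minus strand) and Shox2 from chr3:66981772-66982021 (minus strand), a stretch that lies in an intron of Rsrc1 on the opposite strand. Capitals mark, on either strand, the CCAAT box (CCAAT), the GC box (GGGCGG), the homeodomain core TAATTA and the SMAD-binding letters CAGAC.
Msx1: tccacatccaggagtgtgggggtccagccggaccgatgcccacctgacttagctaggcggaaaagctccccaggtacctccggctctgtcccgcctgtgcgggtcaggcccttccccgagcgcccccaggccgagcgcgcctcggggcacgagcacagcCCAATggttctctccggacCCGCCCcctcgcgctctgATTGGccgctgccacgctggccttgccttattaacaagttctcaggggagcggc
Shox2: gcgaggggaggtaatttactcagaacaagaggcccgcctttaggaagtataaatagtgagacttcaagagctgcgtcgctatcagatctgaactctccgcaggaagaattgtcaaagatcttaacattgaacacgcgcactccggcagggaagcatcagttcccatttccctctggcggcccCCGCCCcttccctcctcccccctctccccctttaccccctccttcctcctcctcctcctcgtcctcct

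A match to such letters describes the sequence and does not show binding. The Msx1 window held 2 CCAAT boxes, which 33.8% of 32536 promoter windows of the same length held at least once, and 1 GC box, which 33.0% held. The Shox2 window held 1 GC box and also 1 TATAAA, which 12.3% held. Of the other windows in the RefSeq table, Msx2 held 1 CCAAT box, 1 GC box and 1 TAATTA at 187 bases before the start, and TAATTA was present in 4.84% of promoter windows. Prrx1 held 1 TAATTA at 173 bases and 1 CAGAC, which 42.2% held, and Prrx2 held 2 GC boxes. GC content was 68.0% for Msx1, 61.6% for Msx2, 70.0% for Prrx2, 55.6% for Shox2 and 47.6% for Prrx1, beside a median of 52.4%. The Msx genes therefore shared the CCAAT and GC boxes but not TAATTA, and the Prrx genes shared none of the motifs named here. Alx1, Alx4 and Pitx1 were not matched.

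**Figure D1:**
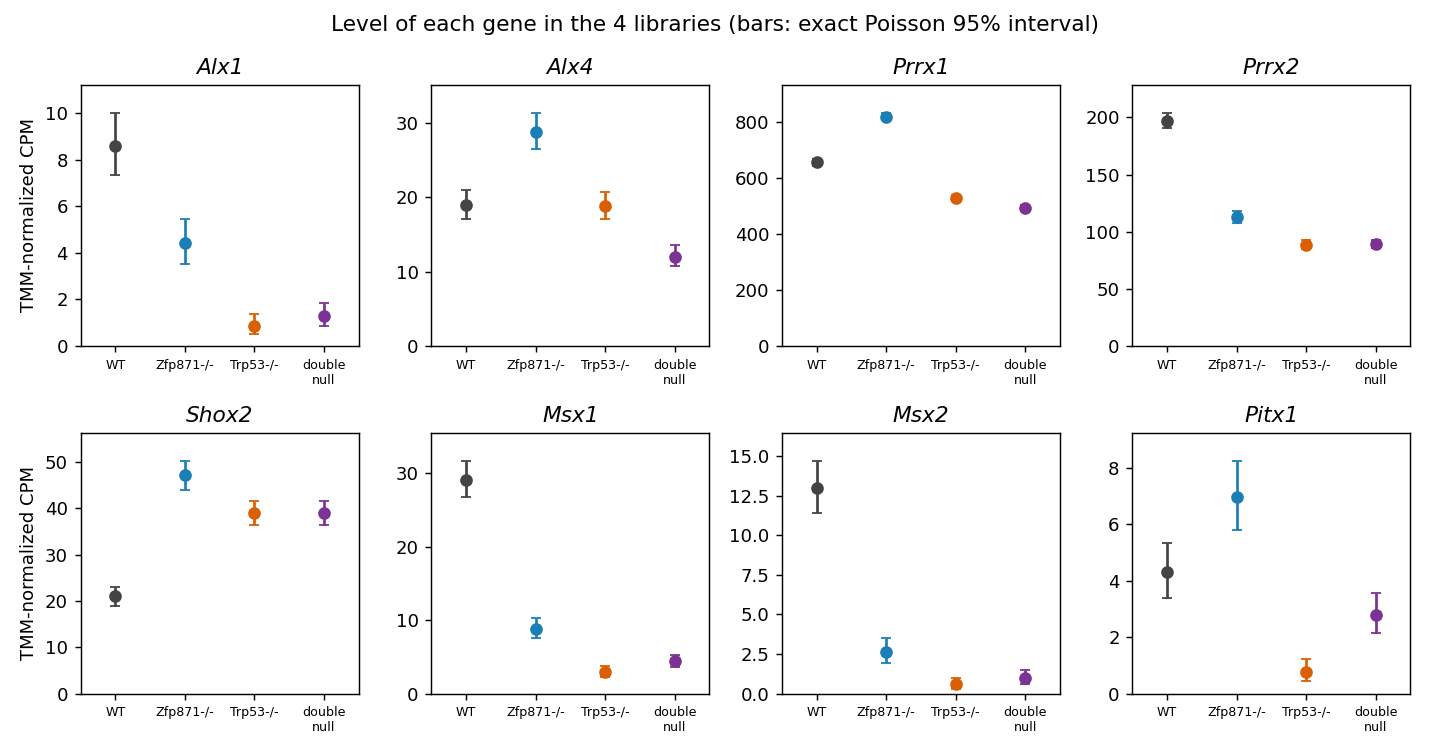
TMM-normalized CPM of each of the 8 genes (vertical axis, linear, from 0) in the 4 libraries (horizontal axis), with exact Poisson 95% intervals of the counts as bars. Msx1, Msx2, Alx1 and Prrx2 were highest in WT, and Shox2 was lowest there.

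The other members fell into further patterns. Alx1 (ENSMUSG00000036602, chromosome 10, 102998707 to 103030215, minus strand), which patterns the midface, was counted 162 times in WT, 83 times in Zfp871-/-, 19 times in Trp53-/- and 30 times in the double null. Its order over the libraries was that of the Msx genes. Pitx1 (ENSMUSG00000021506, chromosome 13, 55825051 to 55836192, minus strand), a hindlimb regulator, had 81, 131, 17 and 65 counts in the same order. It was highest in Zfp871-/- and far lower in Trp53-/- than in any other library.

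Alx4 (ENSMUSG00000040310, chromosome 2, 93642384 to 93681339, plus strand), which acts in the anterior limb and skull, was counted 356 times in WT, 541 times in Zfp871-/-, 409 times in Trp53-/- and 279 times in the double null. Its level was alike in WT and Trp53-/- within counting error, higher in Zfp871-/- and lower in the double null. Shox2 (ENSMUSG00000027833, chromosome 3, 66971727 to 66981771, minus strand), which is needed for the proximal limb bones, had 395, 886, 849 and 904 counts. WT was the low library, and the Trp53-null libraries did not differ from each other beyond counting error.

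Prrx1 (ENSMUSG00000026586, chromosome 1, 163245119 to 163313710, minus strand) was counted 12362 times in WT, 15428 times in Zfp871-/-, 11542 times in Trp53-/- and 11469 times in the double null. Prrx2 (ENSMUSG00000039476, chromosome 2, 30834972 to 30881251, plus strand) had 3720, 2124, 1932 and 2068 counts. Prrx1 was lowest in the double null and highest in Zfp871-/-, while Prrx2 was highest in WT and alike in both Trp53-null libraries. WT was the highest library for 4 of the 8 genes and Zfp871-/- for the other 4, beside 32.7% and 22.4% of all genes kept. Neither Trp53-null library was the highest for any member, against 20.6% (Trp53-/-) and 24.3% (double null) of all genes. 7 of the 8 genes had a highest level at least 2-fold above their lowest, against 24.7% of all genes, and 4 had at least 4-fold, against 8.33%. The exception to the 2-fold spread was Prrx1, at 1.66-fold.

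Some of these genes overlap others in the GENCODE M21 annotation, and no strand setting is stated for the counts, so reads in shared stretches are uncertain. Shox2 shares 153 exonic bases with Rsrc1, a splicing-related gene on the opposite strand that was counted 728 times in WT, 777 times in Zfp871-/-, 996 times in Trp53-/- and 977 times in the double null. Pitx1 shares 165 exonic bases with the antisense gene Gm47071, which had 27, 33, 46 and 48 counts in that order. Pitx1 also shares 108 with Gm28760, listed at 0 counts in the 4 libraries, and Alx1 shares 243 with the lincRNA Gm17028, which had 11, 7, 2 and 1 counts. The genes Ext2, Gm20471, Gm26523 and Gm37644 overlap Alx4 or Prrx1 without sharing exonic bases.

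Levels of different genes were compared per length, with the deposited values read as FPKM (fragments scaled to exon length and library size). Prrx1 and Prrx2 were the leading members in every library and together took between 83.9% and 86.3% of the members' summed FPKM. The sum was 184 FPKM in WT, 157 FPKM in Zfp871-/-, 108 FPKM in Trp53-/- and 106 FPKM in the double null. Prrx2 led in WT, with 99.9 FPKM against 58.8 for Prrx1, and Prrx1 led in Zfp871-/-, with 74.0 against 57.5. In Trp53-/- Prrx1 had 47.5 and Prrx2 44.9, a ratio of 1.06 with an exact binomial 95% interval of 1.01 to 1.11. In the double null (44.6 and 45.4) the interval of their ratio held 1. In counts, which are not per length, Prrx1 exceeded Prrx2 in all 4 libraries.

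Below the Prrx pair the order changed between WT and the others. In WT, Msx1 was next at 9.34 FPKM, followed by Shox2 (6.28), Msx2 (3.94), Alx4 (2.66), Pitx1 (1.61) and Alx1 (1.48). The interval of the ratio of Pitx1 to Alx1 held 1. In Zfp871-/- the order was Shox2 (14.2), Alx4 (4.07), Msx1 (2.85), Pitx1 (2.62), Msx2 (0.810) and Alx1 (0.766). Shox2 and Alx4 thus stood above Msx1, while the ratio intervals of Msx1 to Pitx1 and of Msx2 to Alx1 held 1. In Trp53-/- Shox2 (11.7) and Alx4 (2.64) were followed by Msx1 (0.941), Pitx1 (0.291), Msx2 (0.181) and Alx1 (0.150), and the ratio intervals of Pitx1 to Msx2 and of Msx2 to Alx1 held 1. In the double null Shox2 (11.7), Alx4 (1.70), Msx1 (1.42), Pitx1 (1.05), Msx2 (0.302) and Alx1 (0.224) kept that order, with ratio intervals that held 1 for Alx4 to Msx1, Msx1 to Pitx1 and Msx2 to Alx1. Alx1 had the lowest value in all 4 libraries, but in each of them it could not be told from the next gene beyond counting error. Relative to all genes kept, Prrx1 lay at percentile 92.9 of FPKM or above in each library, while Alx1 stood at percentile 21.3 in WT and 2.06 in Trp53-/-.

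**Figure D2:**
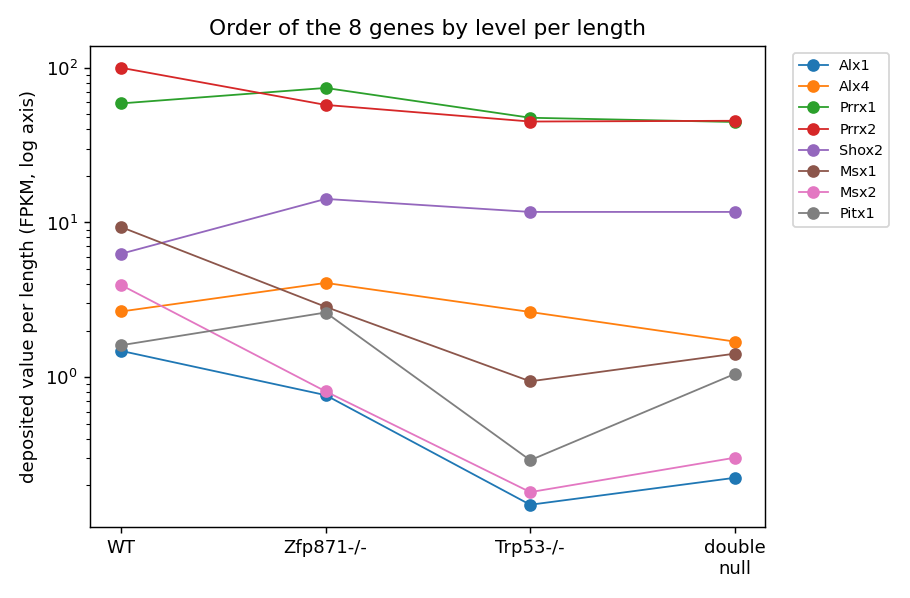
Deposited value per length (FPKM, log axis) of the 8 genes in the 4 libraries, with lines that only join the points of a gene. Prrx1 and Prrx2 lead throughout, and Shox2 stands above Msx1 in each library except WT.

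Partner genes shifted against each other. The FPKM of Prrx2 was 1.70 times that of Prrx1 in WT, 0.777 times in Zfp871-/-, 0.945 times in Trp53-/- and 1.02 times in the double null. Msx1 stood at 2.37 times Msx2 in WT and at 3.52, 5.21 and 4.70 times in Zfp871-/-, Trp53-/- and the double null. Alx4 stood at 1.79 times Alx1 in WT and at 5.31, 17.6 and 7.58 times in the same order. WT was at one end of the range of each of these 3 ratios. In Trp53-/- and the double null, the Msx and Alx ratios rest on 13 and 23 counts of Msx2 and on 19 and 30 of Alx1. These ratios are given without intervals, and their differences between libraries were not tested.

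Loss of Trp53 was read in a pair with Zfp871 present (Trp53-/- against WT) and in a pair without it (double null against Zfp871-/-), with no library in common. With Zfp871 present, the Msx genes, Alx1 and Pitx1 were below their WT level by more than 4-fold in Trp53-/-, and Prrx2 was 2.23-fold lower. Alx4 was alike, and Shox2 was 1.85-fold higher. In the pair without Zfp871 all 8 genes were lower in the double null, where 50.2% of all genes kept were higher. The ratio was smaller than with Zfp871 present for 5 of the 8 genes and larger for Alx4 and Prrx1. No member was called by the test over all genes, so none of these differences is given as a rise or fall.

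The ratios are log2 ratios of CPM with a prior count of 2, and the range in parentheses is the exact binomial 95% interval of the counts. Msx2 had a log2 ratio of -4.24 (-5.38 to -3.65) with Zfp871 and -1.34 (-2.20 to -0.68) without it. Msx1 had -3.27 (-3.71 to -2.94) and -0.99 (-1.37 to -0.64). Alx1 had -3.17 (-4.07 to -2.61) and -1.70 (-2.42 to -1.15). These genes were thus lower in both pairs by more than counting error, with the smaller difference where Zfp871 was lost.

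Pitx1 had log2 ratios of -2.33 (-3.31 to -1.70) and -1.28 (-1.76 to -0.87). Prrx2 had -1.16 (-1.24 to -1.08) and -0.34 (-0.43 to -0.25). Alx4 had -0.01 (-0.22 to 0.20) and -1.25 (-1.47 to -1.05), so that its interval held 0 with Zfp871 and not without it. Prrx1 had -0.31 (-0.35 to -0.27) and -0.73 (-0.76 to -0.69). Shox2 had 0.89 (0.72 to 1.07) and -0.27 (-0.41 to -0.14), on opposite sides of 0. The difference between both pairs was not tested for any gene.

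In Trp53-/- against WT, 5 of the 8 genes were at least 2-fold apart, beside 17.8% of all genes kept. All 5 were lower (Alx1, Msx1, Msx2, Pitx1 and Prrx2), beside 8.88%, and 0 were at least 2-fold higher, beside 8.90%. For Trp53 loss without Zfp871, 4 were at least 2-fold apart, beside 11.8%. These 4 were lower (Alx1, Alx4, Msx2 and Pitx1), beside 6.33%, and 0 were higher, beside 5.51%. The median log2 ratio of the 8 genes was -1.74 and -1.12, where that of all genes was 0.00 in each pair.

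Trp53 and Zfp871 status were also fitted together as additive terms with edgeR's quasi-likelihood method, so that each level of each gene has 2 libraries and 1 residual degree of freedom is left. With Benjamini-Hochberg adjustment over all genes it called 0 of the 8 genes for Trp53 loss, beside 9.33% of all genes called (667 rose and 574 fell, or 884 and 432 with scaling to total counts). 6 of the 8 had an unadjusted p under 0.05, beside 31.0% of all genes. Alx1 came nearest, with a log2 fold change of -2.51 (SE 0.491) and a Benjamini-Hochberg adjusted p of 0.0544 in the edgeR test. Pitx1 had -1.82 (SE 0.411, adjusted p 0.0697), Msx2 -2.92 (SE 0.830, adjusted p 0.104) and Msx1 -2.15 (SE 0.623, adjusted p 0.107) in the same edgeR test. Prrx1 (-0.52, SE 0.152, adjusted p 0.109) and Prrx2 (-0.75, SE 0.224, adjusted p 0.113) were also not called by edgeR. Alx4 had -0.63 (SE 0.340, edgeR adjusted p 0.285) and Shox2 0.30 (SE 0.310, edgeR adjusted p 0.561).

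These calls depended on the tool and on the filter. DESeq2's Wald test of the same design called 5 of the 8 as lower with Trp53 loss (Alx1, Msx1, Msx2, Pitx1 and Prrx2), beside 11.9% of all genes, and limma-voom called 1 (Alx1), beside 10.7%. Without a filter on low counts, edgeR called the same 5 genes as DESeq2, beside 8.74% of all genes. With Trp53 alone in the design, leaving out WT gave 7 calls, beside 25.8% of all genes called, and leaving out Zfp871-/- gave 6, beside 37.8%. Leaving out either Trp53-null library gave 0 calls among the members and 0.00% over all genes. Without WT the estimate for Shox2 was -0.28 instead of 0.30. Trp53-/- and double-null embryos came from one kind of cross and Zfp871-/- embryos from another, so cross or litter cannot be told apart from Trp53 loss.

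**Figure D3:**
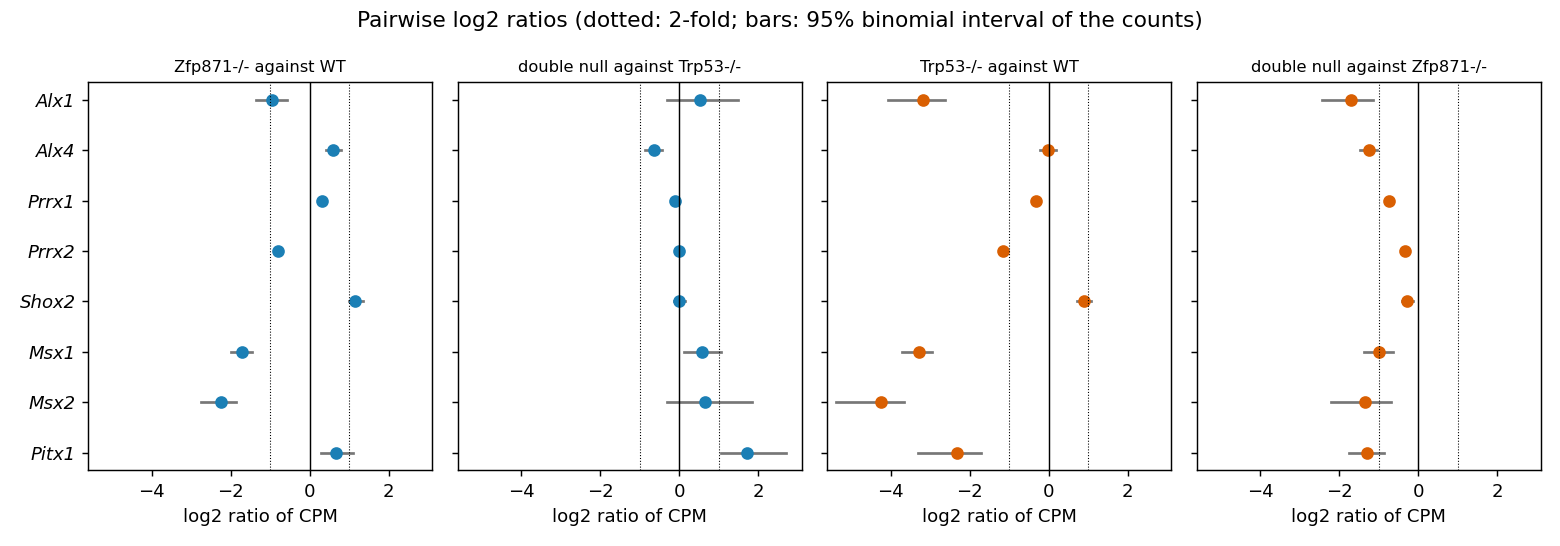
Log2 ratio of CPM (horizontal axis) of the 8 genes (vertical axis) for Zfp871 loss with and without Trp53 (blue, left) and for Trp53 loss with and without Zfp871 (orange, right), with 95% binomial intervals as bars and 2-fold as dotted lines. All 8 genes lie below 0 in the rightmost plot, where 50.2% of all genes kept (not shown) lie above 0. The lowest value shown is that of Msx2 in Trp53-/- against WT, at -4.24.

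Loss of Zfp871 was read in the same way with Trp53 present (Zfp871-/- against WT) and without it (double null against Trp53-/-). These pairs share no library with each other, but Zfp871-/- against WT shares WT with Trp53-/- against WT. With Trp53 present, Msx2 and Msx1 were lower in Zfp871-/- than in WT, as were Alx1 and Prrx2, and Shox2, Pitx1, Alx4 and Prrx1 were higher. Without Trp53 the only member more than 2-fold apart was Pitx1, whose level in the double null was 3.31-fold that in Trp53-/-. No member was called for Zfp871 loss.

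Msx2 had a log2 ratio of -2.25 (-2.76 to -1.85) with Trp53 and 0.65 (-0.31 to 1.84) without it. Msx1 had -1.71 (-1.98 to -1.47) and 0.57 (0.12 to 1.06), and Alx1 -0.95 (-1.36 to -0.57) and 0.52 (-0.31 to 1.48). All 3 were below WT in Zfp871-/-, and in the pair without Trp53 the interval excluded an equal level for Msx1 alone of these.

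Pitx1 was the only member above 0 beyond counting error in both pairs, with 0.68 (0.28 to 1.11) and 1.73 (1.06 to 2.71). Shox2 had 1.16 (0.99 to 1.34) and 0.00 (-0.13 to 0.14). Alx4 had 0.60 (0.41 to 0.80) and -0.64 (-0.87 to -0.42), and Prrx1 0.32 (0.29 to 0.36) and -0.10 (-0.14 to -0.06). Prrx2 had -0.81 (-0.88 to -0.73) and 0.01 (-0.08 to 0.10). Alx4 and Prrx1 thus lay on opposite sides of 0 in both pairs, and the intervals of Shox2 and Prrx2 held 0 without Trp53.

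In Zfp871-/- against WT, 3 of the 8 genes were at least 2-fold apart, beside 7.50% of all genes. Of these, 2 were lower (Msx1 and Msx2), beside 3.98%, and 1 was higher (Shox2), beside 3.52%. For Zfp871 loss without Trp53, 1 of the 8 was at least 2-fold apart, beside 1.83% of all genes. This was Pitx1, which was higher, beside 0.819%, and 0 were lower, beside 1.01%. The medians of the 8 genes were -0.25 and 0.26, against 0.00 for all genes. For Zfp871 loss edgeR called 0 of the 8, beside 0.00% of all genes, and the smallest Benjamini-Hochberg adjusted p among the members was 0.874. The targeted gene Zfp871 was itself not called (log2 fold change -1.23, edgeR adjusted p 0.874), and the smallest edgeR adjusted p over all genes was 0.849. Since the test did not call even the targeted gene, the lack of calls says nothing about the members. Pitx1 alone had an unadjusted p under 0.05 in that edgeR test (log2 fold change 1.19, SE 0.407, unadjusted p 0.0389), beside 3.83% of all genes. With Zfp871 alone in the design its estimate was 2.64 without WT, 0.14 without Zfp871-/-, 0.18 without Trp53-/- and 1.46 without the double null. DESeq2 and limma-voom also called 0 members, beside 0.0526% and 0.00% of all genes. With Zfp871 alone in the design and WT left out, the estimates became 1.17 for Msx1, 1.60 for Msx2, 1.70 for Alx1 and 0.19 for Prrx2, against -0.66, -1.08, -0.32 and -0.40 with all libraries. The fit without WT sets both Zfp871-null libraries against Trp53-/- and so carries the Trp53 genotype of Zfp871-/- as well.

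The double null was also set against WT, a pair that shares a library with each comparison above. Alx1 (-2.64), Msx1 (-2.70), Msx2 (-3.59) and Prrx2 (-1.15) were at least 2-fold lower on the log2 scale of CPM ratios, which is 4 of the 8 genes beside 18.0% of all genes at least 2-fold apart and 9.23% lower. 0 were at least 2-fold higher, beside 8.79%. Shox2 stood at 0.89, and Alx4 (-0.65), Pitx1 (-0.60) and Prrx1 (-0.41) were below WT by less than 2-fold.

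Markers of other cell types moved over the same libraries. The summed level of the 12 chondrocyte markers, of which 7 were kept, was 1350 CPM in WT, 524 CPM in Zfp871-/-, 141 CPM in Trp53-/- and 202 CPM in the double null. That is the order of the libraries seen for Alx1, Msx1 and Msx2, but not every marker followed the sum. In the double null against WT, 4 of the 7 kept were at least 2-fold lower and 1 was at least 2-fold higher, beside 9.23% and 8.79% of all genes. Sox9, also on this list, had 798, 771, 654 and 774 counts. Col2a1, the cartilage collagen, had 11633, 558, 25 and 50 counts. 2 of the 7 chondrocyte markers kept fell with Trp53 loss in the edgeR test, beside 4.31% of all genes. The 7 osteoblast markers, of which 3 were kept, summed to 1580, 1070, 501 and 649 CPM, with Ibsp under 3 counts in every library. Here too, single markers did not all follow the sum. In the double null, 1 of the 3 kept lay below WT by 2-fold or more and 1 lay above it by as much. The median log2 ratio of the 3 was -0.02 in that pair and -0.27 in Trp53-/- against WT. EdgeR called 0 of them for Trp53 loss, beside 9.33% of all genes. The 15 macrophage markers, all kept, summed to 76.2 CPM in WT, 88.3 CPM in Zfp871-/-, 1110 CPM in Trp53-/- and 1000 CPM in the double null. In the edgeR test 15 of 15 rose with Trp53 loss, beside 5.01% of all genes. Summed over each list, the markers of epithelium stood between 1.96 and 7.2 CPM, of mesothelium between 11.5 and 31.7, of endothelium between 12.2 and 24.6, of skeletal muscle between 5.64 and 18.7, of neural cells and glia between 100 and 175, and of erythroid cells between 0.266 and 0.55. The mesothelial sum was lowest in WT and highest in Zfp871-/-. All 5 mesothelial markers were at least 2-fold higher in Zfp871-/- than in WT, beside 3.52% of all genes. In the double null against Zfp871-/-, 4 of them were at least 2-fold lower, beside 6.33%. The part of any of these cell types in the members' differences was not tested. In bulk libraries, fewer cells of a type and less RNA per cell cannot be told apart.

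Other transcription factors of limb and facial mesenchyme were examined from fixed lists without the 8 members. Of 18 limb factors kept, 5 fell with Trp53 loss in the edgeR test and 0 rose, beside 4.31% and 5.01% of all genes. They were Hoxd13 and Hoxd11, which pattern the distal limb, Tbx4, which marks the hindlimb, Hand2, which marks the posterior limb bud, and Tbx2, a T-box repressor. Hoxd13 was counted 1904 times in WT, 142 times in Zfp871-/-, 14 times in Trp53-/- and 14 times in the double null, and Hoxd11 had 303, 44, 8 and 7. Tbx4 had 193, 40, 8 and 5 counts in that order. For Hoxd13, Hoxd11 and Tbx4, WT was thus the highest library and Zfp871-/- the next, as for Msx1. Hand2 (163, 121, 46 and 53 counts) also had that order, whereas Tbx2 (125, 168, 19 and 22) was highest in Zfp871-/-. At the other end, Irx5 (235, 325, 433 and 497 counts) and Meis1 (447, 600, 735 and 749), a marker of the proximal limb, were lowest in WT, as Shox2 was. The list's median log2 ratio was -0.35 in Trp53-/- against WT and -0.19 without Zfp871.

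Of 15 craniofacial factors kept, 1 fell with Trp53 loss (Foxd1, with 279, 53, 15 and 11 counts) and 0 rose, beside 4.31% and 5.01% of all genes. The list's median log2 ratios were -0.55 and -0.25 in the same pairs. Tfap2b, a neural crest factor, had 301, 107, 7 and 23 counts and was not called by edgeR (Benjamini-Hochberg adjusted p 0.0611). Twist2 (316, 472, 1104 and 788 counts) and Eya1 (338, 272, 505 and 531) had the highest Trp53 estimates in this list. Of 13 Dlx, Barx, Lhx and related genes kept, 2 fell and 0 rose, beside 4.31% and 5.01% of all genes. These were Barx1 (189, 111, 21 and 21 counts), which acts in the jaw and stomach, and Lmx1b (156, 155, 15 and 38), which sets the dorsal side of the limb. Against WT, 10 of the 13 were at least 2-fold lower in Trp53-/-, beside 8.88% of all genes, with a median of -1.38, and 3 were so without Zfp871, beside 6.33%, with a median of -0.46. Lhx2, a limb bud LIM homeobox gene, had 421, 22, 19 and 14 counts and was not called (edgeR adjusted p 0.126). Lhx9 (463, 440, 603 and 751) had a Trp53 estimate of 0.32 and was not called by edgeR.

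Most other paired-like and paired-class genes were hardly detected. Of 24 such genes counted, 5 were kept, and 6 had 0 counts in all libraries. EdgeR called 0 of the 5 for Trp53 loss, beside 9.33% of all genes, and their median log2 ratio was -0.73 with Zfp871 and -0.13 without it. Pax1 (31, 64, 18 and 32 counts) and Pax9 (54, 22, 15 and 15) had the lowest estimates. Msx3, the remaining Msx gene, had at most 2 counts in a library.

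Of 5 trunk and visceral factors kept, edgeR called 0 for Trp53 loss, beside 9.33% of all genes. The list's medians for Trp53 loss were -0.23 (Zfp871 present) and -0.83 (Zfp871 lost). Foxf1 had 148, 182, 97 and 125 counts, Gata6 66, 125, 65 and 47, Hlx 180, 146, 339 and 287, and Wt1 5, 35, 42 and 9. Wt1 was lowest in WT. The filter drops genes that reach a CPM of 1 in a single library, so genes high in WT alone are not in these counts. Among them were the trunk factor Nkx3-2, with 238, 11, 5 and 2 counts, and the distal limb factor Hoxa13, with 226, 15, 9 and 3, both named after their values were seen.

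BMP genes were examined because they induce Msx1 and Msx2 in the embryo. Of 28 kept, 3 fell with Trp53 loss in the edgeR test and 0 rose, beside 4.31% and 5.01% of all genes. Those that fell were the ligand gene Gdf6, the inhibitory SMAD gene Smad6 and the antagonist gene Fst. Bmp4, the ligand best known for inducing Msx genes, was counted 2303 times in WT, 198 times in Zfp871-/-, 90 times in Trp53-/- and 75 times in the double null. WT was the high library, as for the Msx genes, but Bmp4 was not called (log2 fold change -3.41, edgeR adjusted p 0.0855). Gdf6 had 611, 243, 49 and 47 counts (log2 fold change -3.27, edgeR Benjamini-Hochberg adjusted p 0.0242). The BMP target genes differed in their order. Smad6 and Id1 had their highest CPM in WT and their lowest in Trp53-/-, as the Msx genes did, whereas Id2 and Id3 did not. Id1 had 2124, 1543, 1595 and 1902 counts, Id2 878, 908, 1327 and 1264, and Id3 5071, 4066, 5697 and 7092. Smad6 had 1541, 1227, 739 and 843. The receptor genes Bmpr1a (3121, 2902, 2854 and 2919) and Bmpr2 (3637, 3829, 3624 and 3576) were not called. Bambi (139, 193, 340 and 403), a decoy receptor, and Smad1 (606, 683, 1024 and 1193), a mediator, had the highest Trp53 estimates and were not called. The list's median log2 ratio was -0.09 in Trp53-/- against WT and -0.20 without Zfp871.

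Of 16 FGF and hedgehog genes kept, 0 were called by edgeR for Trp53 loss, beside 9.33% of all genes. The FGF response genes Spry4 (106, 327, 475 and 657 counts) and Etv4 (325, 729, 1124 and 1332) were lowest in WT, where Shox2 also was. Hhip, a hedgehog antagonist, had 180, 69, 25 and 48 counts, and Fgfr2, an FGF receptor, 2787, 1461, 1561 and 1700. The list's medians were 0.30 and -0.08 in the same pairs. For Zfp871 loss edgeR called 0 genes in these 7 lists, beside 0.00% of all genes.

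**Figure D4:**
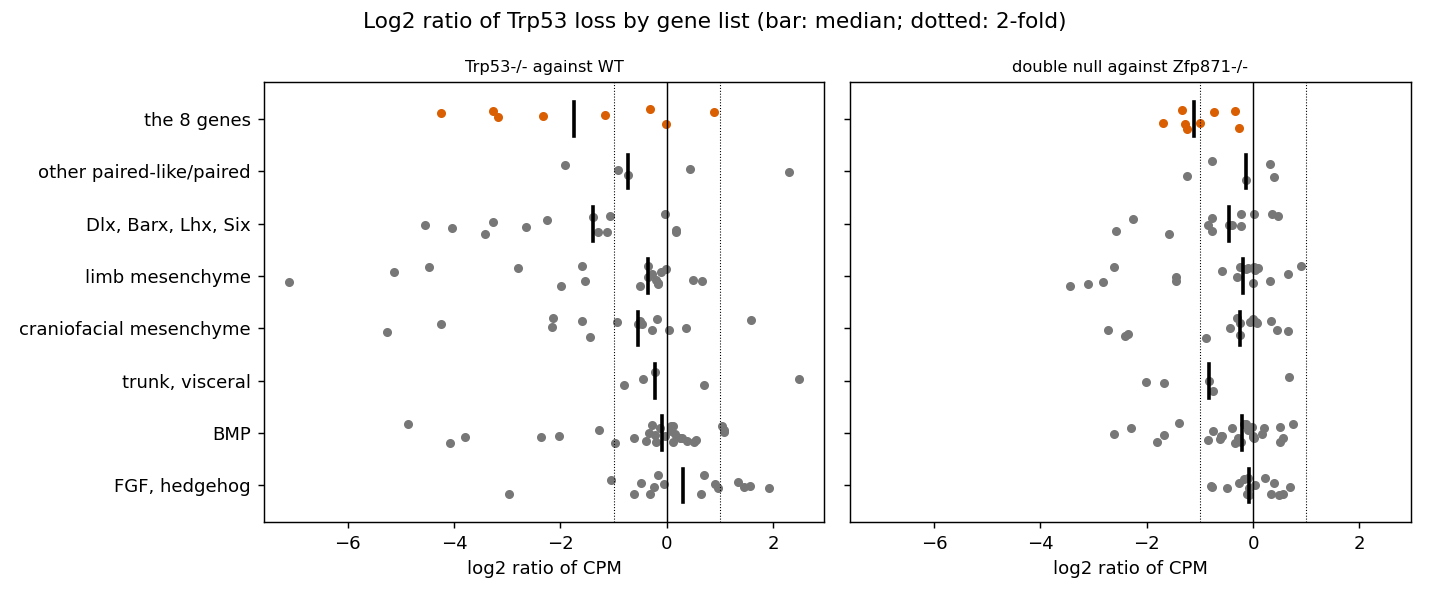
Log2 ratio of CPM (horizontal axis) of the 8 genes (orange) and of the kept genes of 7 other lists (grey) for Trp53-/- against WT (left) and the double null against Zfp871-/- (right), with list medians as bars and 2-fold as dotted lines. The medians of the 8 genes are -1.74 and -1.12, and each list holds genes on both sides of 0 except the 8 genes in the right plot.

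The genes nearest to each member were found over the 4 libraries, as the smallest Euclidean distance between log2 CPM profiles centred on their means, among 13072 other genes kept with a mean of at least 1 CPM. For Msx2 they were the homeobox gene Six2 (distance 0.24), A4galt (0.27) and Pcp4l1 (0.28), and 11 genes lay within 0.5. Six2 was counted 425 times in WT, 110 times in Zfp871-/-, 28 times in Trp53-/- and 44 times in the double null. For Msx1 they were Kcnj15 (0.12), Lpin3 (0.13) and Gja1 (0.14), the gap junction gene connexin 43, with 31 genes within 0.5. Gja1 had 9305, 2787, 1223 and 1713 counts. Msx1 and Msx2 were 0.76 apart, and Msx1 and Alx1 0.62.

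Near Alx1 were Lmcd1 (0.23) and Shisa4 (0.25), with 24 genes within 0.5. For Pitx1 they were Igf2 (0.42), Slc14a1 (0.47) and Btc (0.51), and only 2 genes lay within 0.5, the fewest for any member. Igf2, a fetal growth factor gene, was counted 468 times in WT, 535 times in Zfp871-/-, 85 times in Trp53-/- and 260 times in the double null. For Shox2 they were Gm14230 (0.03), Nr4a1 (0.06) and Kdr (0.09), with 405 genes within 0.5.

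The profiles of the remaining members were common. For Alx4 the nearest genes were Zkscan7 (0.09), Fam174b (0.10) and Zfp811 (0.13), with 217 within 0.5. For Prrx2 they were Pla2g16 (0.02), Ndufaf3 (0.03) and Atp6v0a1 (0.08), with 837. For Prrx1 they were Piezo1 (0.04), Fzd6 (0.04) and Afg1l (0.05), with 2872. Prrx1 and Alx4 were 0.44 apart, the closest pair among the members, and Shox2 and Msx2 were the farthest, at 3.95. With 4 libraries such distances describe these cultures only.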

How the data were processed

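The authors deposited counts per Ensembl gene; the submitters' processing notes name fastp, STAR, featureCounts and the build mm10. No source used here gives the versions, the strand setting or the annotation release. The values the authors deposited per library were read as FPKM, since each equals the count divided by a length per gene and 1 factor per library, and the header names no unit. Symbols and coordinates came from GENCODE M21, which matched 54495 of 54532 IDs, and promoters from RefSeq (GRCm38.p6). Counts were TMM-scaled with edgeR 4.0.16 (R 4.3.3), and genes with a CPM of at least 1 in at least 2 libraries were kept. Log2 ratios used a prior count of 2 and exact (Clopper-Pearson) 95% intervals. The edgeR quasi-likelihood test used the design Trp53 + Zfp871, Benjamini-Hochberg adjustment and a threshold of 0.05, with SE as the fold change over the root of F. The test was also run on simulated counts with a common dispersion and changes by a single factor. That setting has no difference between backgrounds, so it does not show how the test behaves on these libraries. DESeq2 1.42.0, limma 3.58.1, other scalings, filters and prior counts were alternatives. Beside the members, genes named were the 3 nearest profiles per member, the 2 highest and 2 lowest Trp53 estimates of each list, overlapping and targeted genes, and markers. Some genes under this rule are not reported here. Other list genes, among them Tbx4, Tbx2, Hand2, Lmx1b, Smad6, Fst, Msx3, Id1, Id2, Id3, Bmpr1a, Bmpr2, Nkx3-2 and Hoxa13, were named after their values were seen. Members and lists were chosen with earlier results of these data known. Nothing says that the libraries of a level are repeats, so p-values describe these 4 cultures.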

Additional observations from a re-analysis of the deposited data

Results flagged for a closer look

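The values of 4 genes moved in opposite directions in both backgrounds, with counting intervals that excluded an equal level in each pair. The share of all genes kept that did the same was not counted, so this number is not a result about the members. At high counts such intervals exclude an equal level even for small differences, as for Prrx1 at -0.10. The difference between backgrounds was not tested, since each genotype had 1 library. For Zfp871 loss, the log2 ratio of Msx1 was -1.71 in Zfp871-/- against WT and 0.57 in the double null against Trp53-/-. That of Alx4 was 0.60 and -0.64, and that of Prrx1 0.32 and -0.10, in the same pairs. For Trp53 loss, the log2 ratio of Shox2 was 0.89 in Trp53-/- against WT and -0.27 in the double null against Zfp871-/-.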

How the results depend on the processing

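With Trp53 loss 1241 genes were called (53.7% upward), with total counts in place of TMM 1316 (67.2% upward), without a filter 2304, and with a CPM of at least 1 in all libraries 698. Leaving out a library with Trp53 alone as the design gave 0 to 5032 calls, and 0 to 7 of the 8 members. Of the members 0 were called, against 1 with DESeq2 size factors, limma-voom or the design with Trp53 alone, and 5 without a filter or with DESeq2's Wald test. With Zfp871 loss 0 genes were called, against 6 without a filter and 7 with DESeq2. With a CPM of at least 1 in all libraries 5 members were left. The members at least 2-fold apart were then 0 in place of 1 in the double null against Trp53-/-, 2 in place of 5 in Trp53-/- against WT, 1 in place of 4 in the double null against Zfp871-/-, and 2 in place of 4 in the double null against WT, because fewer genes were kept.

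Leaving out each library in turn, with the tested gene alone as the design, the lone library is assumed to vary like the others. The Trp53 estimate of Shox2 then ran from -0.28 (without WT) to 0.89. The Zfp871 estimates ran from -0.65 to 0.61 (without the double null) for Alx4, -0.27 (without Zfp871-/-) to 0.47 for Prrx1, and, with the highest value without WT, from -0.97 to 0.19 for Prrx2, -2.14 to 1.17 for Msx1, -2.84 to 1.60 for Msx2 and -1.87 to 1.70 for Alx1. That of Alx4, -0.01 with all libraries, was also 0.12 without WT, 0.11 without Trp53-/-, 0.04 with limma-voom and 0.11 with Zfp871 alone as the design. The cause was not tested. Of the members' log2 ratios under other settings, 192 stayed within counting error and 8, all with total counts, did not. No paired analysis was possible because each genotype has 1 library and the labels give no replicate numbers. Low counts limit Msx2, Alx1 and Pitx1 in Trp53-/-, with 13, 19 and 17 counts.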
